A study of Mus musculus with 6 samples.

Results

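The genes that encode the isoforms of cytochrome c oxidase subunits IV, VIa, VIb, VIIa and VIII were followed in RNA-seq of mouse pancreatic islets with and without the farnesoid X receptor (FXR). The members were the 10 rows of the gene count table with the symbols *Cox4i1*, *Cox4i2*, *Cox6a1*, *Cox6a2*, *Cox6b1*, *Cox6b2*, *Cox7a1*, *Cox7a2*, *Cox7a2l* and *Cox8a*, of 19342 genes in all. They were chosen by name, with no measured value in the rule, but with earlier results of these data known. Of these genes 4 are known for expression in restricted tissues (*Cox4i2*, *Cox6a2*, *Cox6b2* and *Cox7a1*) and 6 are made in most tissues.

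Islets were isolated from wild-type (FXR+/+) and FXR knockout (FXR-/-) C57Bl/6 mice aged 3 months, and mRNA was selected with oligo(dT) beads. There were 3 libraries per genotype, a female 1, a male 1 and a male 2, here F1, M1 and M2. Whether a library holds the islets of 1 mouse or of several is not stated, so the p-values measure the spread between these libraries, which may be in part technical. The study's RNA-seq, 1 part of its work, asked which islet genes differ without FXR, a nuclear receptor for bile acids encoded by *Nr1h4*.

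Cytochrome c oxidase, complex IV of the respiratory chain, takes electrons from cytochrome c and reduces oxygen to water while it pumps protons across the inner mitochondrial membrane. Its catalytic core is encoded by mitochondrial DNA, and the nuclear subunits around the core set its stability, its regulation and its contacts with other complexes. Several nuclear subunits exist as isoforms from separate genes, an isoform found in most tissues and another found mainly in heart and skeletal muscle, lung or testis. In β-cells, ATP made by the respiratory chain links glucose metabolism to insulin release.

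The *Cox6a2* stretch between the study's real-time PCR primers, which match the mouse transcript at every base, is printed first, since it lies in the coding sequence and shows how far the isoforms of subunit VIa differ. In GRCm38 it lies on the minus strand at chr7:128205900-128206018 (119 bases of exon 2) and chr7:128205807-128205812 (6 bases of exon 3). Capitals in the first line mark the sites of the forward and reverse primers. The second line is the aligned coding stretch of *Cox6a1*, on the minus strand at chr5:115348565-115348689 (exon 2) and chr5:115345921-115345926 (exon 3), in which capitals mark the bases that differ from *Cox6a2* or are not in it. Both are from GENCODE vM21 transcripts.
Cox6a2: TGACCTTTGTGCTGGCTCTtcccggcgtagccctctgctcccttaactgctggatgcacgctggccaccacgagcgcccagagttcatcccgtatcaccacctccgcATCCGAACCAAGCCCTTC
Cox6a1: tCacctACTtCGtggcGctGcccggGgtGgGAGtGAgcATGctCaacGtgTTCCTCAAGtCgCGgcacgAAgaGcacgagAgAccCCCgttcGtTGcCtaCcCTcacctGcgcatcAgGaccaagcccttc

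In this alignment 50 of the 131 bases of *Cox6a1* were in capitals. Over the whole coding sequences 66.6% of 287 aligned bases were identical between *Cox6a2* and *Cox6a1*, and no identical run was longer than 12 bases. The other pairs were as far apart, with 70.3% identity for *Cox4i2* and *Cox4i1*, 65.9% for *Cox6b2* and *Cox6b1*, 67.4% for *Cox7a1* and *Cox7a2* and 70.6% for *Cox7a2l* and *Cox7a2*. The longest identical run in any of these pairs was 14 bases. Near copies outside the pairs were found for *Cox7a2l*, which shares 342 bases at 98.0% identity with a processed pseudogene (*Gm6969*), and for *Cox6a1*, which shares 496 bases at 92.9% identity with the transcript *AC148174.2*. Neither copy has a row in the count table, and how reads that match both were counted is not given in the sources used here. *Cox4i1* shares 134 bases with a transcript of *Emc8*, which overlaps it and is in the table.

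The libraries held 20629306 to 30139235 counts in genes. *Nr1h4*, the targeted gene, had 12.2 to 14.2 CPM (counts scaled to library size by the TMM method) in FXR+/+ and 5.67 to 7.62 CPM in FXR-/- islets, with no overlap. Its log2 difference was −1.07 (edgeR adjusted p = 0.216, with the replicate number as a block 0.0440). Islet hormone genes were abundant: the summed level of 10 β-cell markers was 195000 to 231000 CPM in FXR+/+ and 188000 to 272000 CPM in FXR-/- islets. Acinar markers summed to 37400 to 114000 CPM in FXR+/+ and 53700 to 130000 CPM in FXR-/- islets, the highest in M1 of each genotype. In these bulk libraries fewer cells of a type and less RNA per cell cannot be told apart.

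All 10 members passed the filter on low counts, and 0 of them were called at an adjusted p under 0.05 when sex was a term in edgeR's quasi-likelihood model (Benjamini-Hochberg over 14619 genes, of which 0.0% were called). At an unadjusted p under 0.05 there were 3 members, *Cox6a2*, *Cox4i2* and *Cox6a1*, all higher in FXR-/- islets, while 10.3% of all genes tested were under that value. With the replicate number as a block edgeR called 1 member, *Cox6a2* (0.157% of all genes called), and DESeq2 called 1 member, again *Cox6a2* (1.21% of all genes called). The fold changes of the 4 restricted isoforms ran from −0.29 to 1.12 on the log2 scale, and those of the 6 ubiquitous isoforms from −0.12 to 0.25. The median of the ubiquitous isoforms was 0.16 and that of all genes tested 0.0084.

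**Figure D1:**
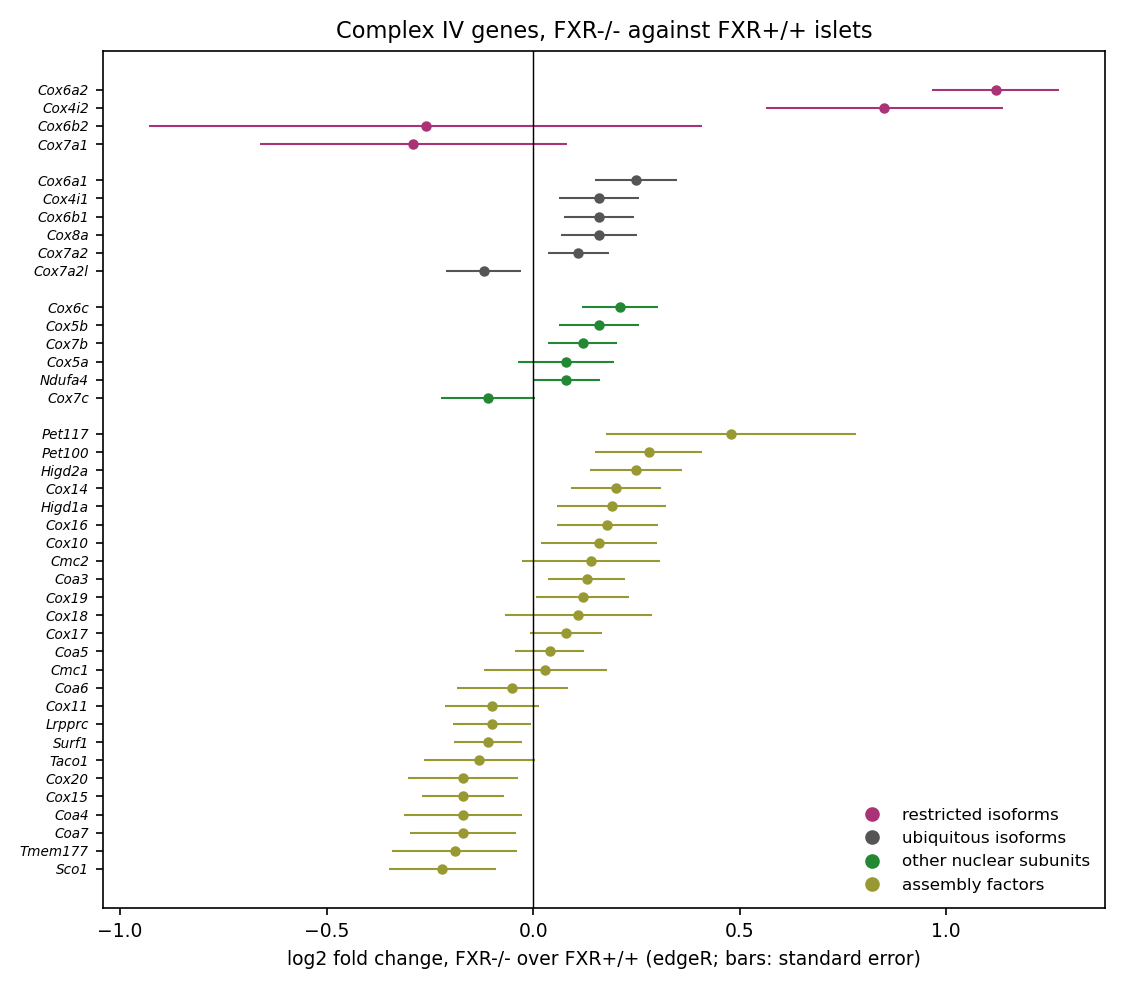
Log2 fold change of each complex IV gene in FXR-/- over FXR+/+ islets (x axis, edgeR with a term for sex), with the standard error as a bar, 3 libraries per genotype. *Cox6a2* at 1.12 and *Cox4i2* at 0.85 lie apart from the 6 ubiquitous isoforms, which lie between −0.12 and 0.25.

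Levels were compared between genes as CPM per kilobase of the longest annotated transcript. In FXR+/+ islets the most abundant member was *Cox8a*, at 243 ± 4.99 (SD, n = 3), followed by *Cox6a1* at 222 ± 14.4, *Cox4i1* at 177 ± 8.83, *Cox7a2l* at 170 ± 14.6, *Cox6b1* at 101 ± 2.91 and *Cox7a2* at 82.6 ± 0.604. The 6 ubiquitous isoforms thus held the first places, with 97.1% to 99.2% of the 14014 genes of known length below them. *Cox6a2* came next at 51.0 ± 7.29 CPM per kilobase, with 94.6% of genes below it.

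The other restricted isoforms were far lower. *Cox7a1* stood at 2.06 ± 0.772 CPM per kilobase, *Cox4i2* at 1.28 ± 0.208 and *Cox6b2* at 0.787 ± 0.10 (SD, n = 3), with 27.9%, 21.3% and 15.5% of genes below them. *Cox6a2* thus lay below every ubiquitous member and above the other 3 restricted isoforms in all FXR+/+ libraries. In this order *Cox4i1* and *Cox7a2l* overlapped each other between libraries, as did *Cox7a1* and *Cox4i2*, while every other neighbour was separated in all 3 FXR+/+ libraries. The lowest *Cox8a* library, at 238, was barely above the highest *Cox6a1* library, at 237.

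**Figure D2:**
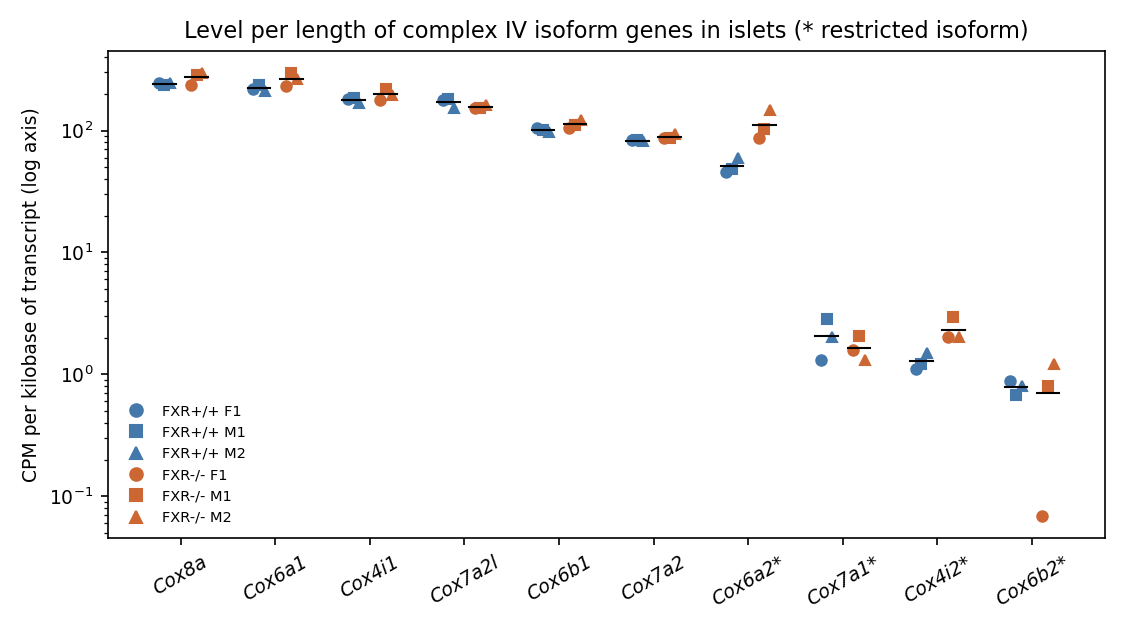
Level of each member in each library as CPM per kilobase of transcript (log axis), FXR+/+ in blue and FXR-/- in orange, with the mean of 3 libraries as a line. *Cox6a2* lies between the ubiquitous genes and the other restricted genes in FXR+/+ islets at 51.0, and at 112 in FXR-/- islets, and the means of the other 3 are 2.33 or lower.

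Subunit VIa lies at the contact between the monomers of dimeric complex IV. *Cox6a1* encodes its widespread isoform, also called the liver isoform, and *Cox6a2* the isoform of heart and skeletal muscle. *Cox6a2* (NCBI gene 12862, minus strand, chr7:128205435-128206387 in GRCm38) had 30.8, 32.9 and 40.3 CPM in F1, M1 and M2 of FXR+/+ islets and 58.7, 69.8 and 99.8 CPM in F1, M1 and M2 of FXR-/- islets. All FXR-/- libraries lay above all FXR+/+ libraries, and M2 was the highest library in both genotypes. On the log2 scale the difference was 1.12 (SE 0.154, edgeR adjusted p = 0.198), with the block 1.11 (SE 0.0957, edgeR adjusted p = 0.0129) and in DESeq2 1.11 (adjusted p = 5.72e-08).

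With each library left out in turn the log2 fold change ran from 0.93 to 1.22. It was lowest without M2 of FXR-/- (edgeR adjusted p = 0.650) and highest without M1 of FXR-/- (edgeR adjusted p = 0.161). Libraries of the genotypes were apart in this way, with FXR-/- higher, for 4 of the 10 members (*Cox6a2*, *Cox4i2*, *Cox6b1* and *Cox7a2*) and for 8.01% of all genes tested. With library size alone as the scaling there were 3 such members, *Cox6a2*, *Cox4i2* and *Cox6a1*. The share of all genes was not counted with this scaling, so nothing is read from that number.

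*Cox6a1* (NCBI gene 12861, minus strand, chr5:115345642-115348981) had 137, 147 and 130 CPM in FXR+/+ and 143, 184 and 165 CPM in FXR-/- islets. The libraries overlapped in F1 of FXR-/-, which lay below M1 of FXR+/+. Its log2 difference was 0.25 (SE 0.0995, edgeR adjusted p = 0.474).

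Set against each other within a library, where the scaling between libraries has no part, the isoforms of subunit VIa were compared directly. The log2 ratio of *Cox6a2* to *Cox6a1* per length was −2.28, −2.29 and −1.82 in F1, M1 and M2 of FXR+/+ and −1.41, −1.53 and −0.86 in FXR-/- islets. All 3 FXR-/- libraries were higher, by 0.86 on average (a ratio 1.82 times as high), and the same-numbered libraries differed by 0.86, 0.76 and 0.96. A two-sided exact permutation test gave p = 0.1, the smallest that 3 libraries against 3 can give, and 0.2 after Benjamini-Hochberg adjustment over 4 isoform pairs.

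As a share of the transcripts of both genes per length, *Cox6a2* made up 17.1%, 16.9% and 22.1% in FXR+/+ and 27.3%, 25.7% and 35.5% in FXR-/- islets. The lowest share in FXR-/- islets had a 95% Wilson interval of 24.5% to 26.9% and the highest in FXR+/+ one of 21.0% to 23.2%, so these shares were apart beyond counting error, which is all that the intervals cover. On average the share was 18.7% ± 2.94 in FXR+/+ and 29.5% ± 5.28 in FXR-/- islets (SD, n = 3).

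The sum of both genes was 273 ± 11.0 CPM per kilobase in FXR+/+ and 376 ± 52.5 in FXR-/- islets (SD, n = 3), or 37.8% higher. *Cox6a2* was 60.9 CPM per kilobase higher and *Cox6a1* 42.3 higher. In FXR-/- islets *Cox6a2*, at 112 ± 31.3 CPM per kilobase, stood beside *Cox6b1* at 113 ± 9.06 and above the mean of *Cox7a2* at 89.0 ± 3.37, with overlapping libraries. With the median in place of the longest transcript length it stayed below both of them, as in FXR+/+ islets.

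**Figure D3:**
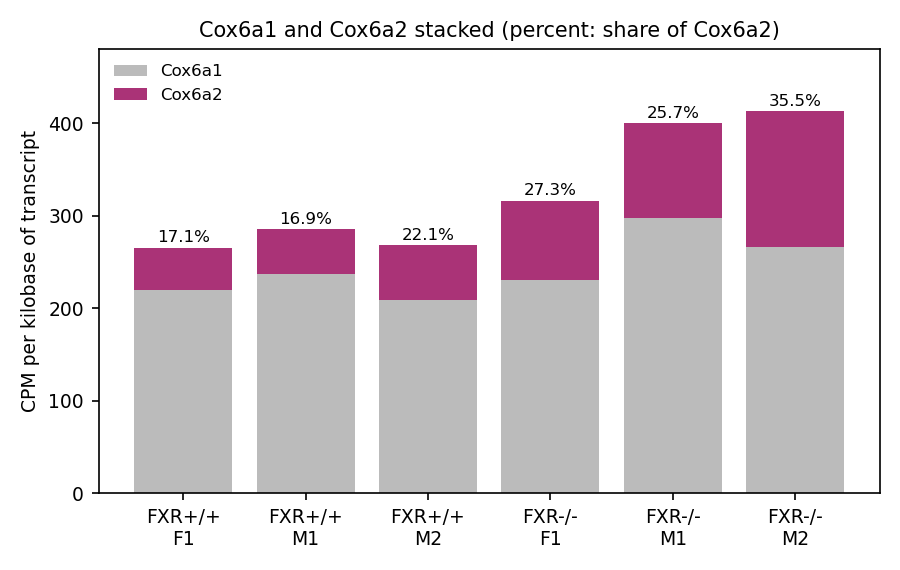
Stacked levels of *Cox6a1* and *Cox6a2* (CPM per kilobase of transcript, bars from 0) in each library, with the percentage that *Cox6a2* makes up of both above each bar. The share lies between 16.9% and 22.1% in FXR+/+ and between 25.7% and 35.5% in FXR-/- islets.

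Each exon of *Cox6a2* had a positive log2 difference in edgeR with a term for sex, at 1.00 for exon 1, 0.96 for exon 2 and 1.01 for exon 3. In transcript order, exon 1 was counted 66, 65 and 158 times in FXR+/+ and 145, 127 and 225 times in FXR-/- islets. Exon 2 was counted 60, 57 and 110 against 123, 95 and 173 times, and exon 3 38, 35 and 61 against 69, 63 and 109 times. These counts are not scaled to library size, and those of exons 1 and 2 overlapped between the genotypes. Together the exon counts hold 22.8% of the gene counts of *Cox6a2*, by an unstated rule. M2 has the most gene counts of each genotype and had the highest counts in all 3 exons. The edgeR adjusted p of the exons ran from 0.272 to 0.301, over 26998 exons of which 0.0185% were called. Of the members' 35 listed exons 10 passed the filter. Of these 0 were called by edgeR at an adjusted p under 0.05 and 4 at an unadjusted p under 0.05 (the 3 of *Cox6a2* and 1 of *Cox6a1*), as were 7.79% of all exons tested.

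*Itgad*, an integrin gene on the opposite strand, shares 70 exonic bases with *Cox6a2*, and whether the counting used strand is not given in the sources used here. *Itgad* had 0.980, 1.68 and 2.05 CPM in FXR+/+ and 2.79, 1.73 and 4.42 CPM in FXR-/- islets. Its libraries overlapped in M1 of FXR-/-, and its log2 difference was 0.96 (SE 0.378, edgeR adjusted p = 0.466). The log2 ratio of *Cox6a2* to *Itgad* in CPM averaged 4.52 in FXR+/+ and 4.74 in FXR-/- islets, with overlap. The part of shared reads in either result was not tested.

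*Cox6a2* was also set against the other subunits. Its log2 ratio to each of 12 genes (the 6 ubiquitous members and 6 other nuclear subunits) was higher in FXR-/- islets by 0.86 to 1.22 on average. These ratios all share the counts of *Cox6a2*, which were apart between the genotypes on their own. The ratios are therefore not independent of each other and add no separate support.

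The 10 counted markers of striated muscle, where *Cox6a2* is best known, summed to 3.62 to 4.57 CPM in FXR+/+ and 3.84 to 4.84 CPM in FXR-/- islets, which overlapped. Of 10 β-cell markers 6 had a positive and 4 a negative log2 fold change, with a median of 0.07, and 0 were called by edgeR. The values ran from −0.40 for *G6pc2*, a subunit of glucose-6-phosphatase, to 0.57 for the transcription factor *Mafa*. In edgeR 2 markers, *Mafa* and *Nkx6-1* (0.37), had an unadjusted p under 0.05, as did 10.3% of all genes tested. The part of striated muscle or β-cells in the *Cox6a2* result was not tested.

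Subunit IV is an early building block of complex IV through which ATP slows the enzyme. *Cox4i1* encodes its common isoform, and *Cox4i2* an isoform of lung, vessels and oxygen-sensing cells. *Cox4i2* (NCBI gene 84682, plus strand, chr2:152754173-152765037) was counted only 19, 18 and 35 times in FXR+/+ and 37, 41 and 35 times in FXR-/- islets. This was 0.809, 0.892 and 1.10 CPM against 1.5, 2.16 and 1.47 CPM. The lowest FXR-/- library was above the highest FXR+/+ library, but the counting intervals met: 95% exact Poisson limits were 0.769 to 1.54 CPM for M2 of FXR+/+ and 1.03 to 2.05 CPM for M2 of FXR-/-.

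The log2 difference of *Cox4i2* was 0.85 (SE 0.287, edgeR adjusted p = 0.444), and it was not called in any alternative (adjusted p from 0.241 to 0.887). *Cox4i1* (NCBI gene 12857, plus strand, chr8:120668222-120674207) had 138, 140 and 128 CPM in FXR+/+ and 135, 169 and 151 CPM in FXR-/- islets. F1 of FXR-/- lay within the FXR+/+ range and the male libraries lay above it. Its log2 difference was 0.16 (SE 0.0967, edgeR adjusted p = 0.553), and 154 of its exonic bases overlap *Emc8* on the opposite strand.

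The log2 ratio of *Cox4i2* to *Cox4i1* per length was −7.31, −7.20 and −6.77 in FXR+/+ and −6.42, −6.21 and −6.59 in FXR-/- islets. The genotypes did not overlap, with a mean difference of 0.69, but the M2 libraries differed by only 0.18, against 0.89 for F1 and 0.99 for M1 (two-sided exact permutation p = 0.1, adjusted over the 4 pairs 0.2). *Cox4i2* thus made up 0.721% ± 0.153 of both genes' transcripts in FXR+/+ and 1.15% ± 0.153 in FXR-/- islets (SD, n = 3).

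Markers of vessels are given beside *Cox4i2*. Of 12 pericyte and smooth muscle markers all 12 had a positive log2 fold change (median 0.26) and 0 were called by edgeR. At an unadjusted p under 0.05 in edgeR there were 2 of them, beside 10.3% of all genes tested. They summed to 196 to 238 CPM in FXR+/+ and 220 to 320 CPM in FXR-/- islets, which overlapped. The 5 endothelial markers summed to 342 to 429 CPM against 439 to 690 CPM, which did not overlap, and 0 of them were called, with 4 at an unadjusted p under 0.05. The median log2 fold change of the endothelial markers was 0.46. It was 0.43 for 12 acinar markers (11 positive and 1 negative) and 0.87 for 5 fibroblast markers (all positive), again with 0 called. M1 of FXR-/- was the highest library of both vessel sums and of *Cox4i2*, and also of the acinar sum. The part of any of these cells in the *Cox4i2* result was not tested.

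**Figure D4:**
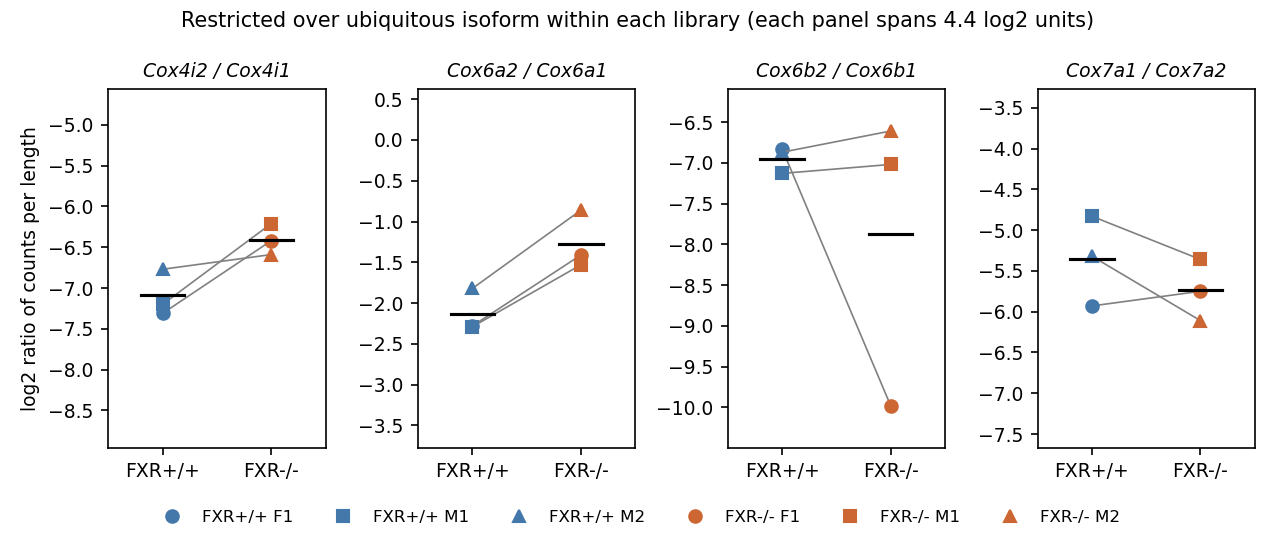
Log2 ratio of the restricted to the ubiquitous isoform, per length, in each library (y axis; each panel spans the same range), with lines between same-numbered libraries and the mean of 3 libraries as a bar. The ratio of *Cox6a2* to *Cox6a1* is higher in FXR-/- by 0.76 to 0.96 in each pair of libraries, and the ratio of *Cox6b2* to *Cox6b1* is set by F1 of FXR-/-, with 1 count of *Cox6b2*.

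Subunit VIb faces the intermembrane space, where cytochrome c docks. *Cox6b1* encodes the common isoform and *Cox6b2* the isoform of testis. *Cox6b1* (NCBI gene 110323, minus strand, chr7:30616861-30626151) had 64.2, 62.3 and 60.6 CPM in FXR+/+ and 64.7, 68.4 and 75.7 CPM in FXR-/- islets. All FXR-/- libraries lay above the FXR+/+ libraries, narrowly so for F1 of both genotypes, and they overlapped with library size alone as the scaling. Its log2 difference was 0.16 (SE 0.0854, edgeR adjusted p = 0.525).

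*Cox6b2* (NCBI gene 333182, minus strand, chr7:4751792-4753094) was counted 12, 8 and 15 times in FXR+/+ and 1, 9 and 17 times in FXR-/- islets. F1 of FXR-/- was the lowest library and M2 of FXR-/- the highest, so the genotypes overlapped. The single count of F1 has a 95% exact Poisson interval of 0.0253 to 5.57 counts, or at most 0.226 CPM, while the FXR+/+ libraries had 0.396 to 0.511 CPM. The log2 difference was −0.26 (SE 0.670, edgeR adjusted p = 0.893), and without F1 of FXR-/- it was 0.45.

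*Cox6b2* thus gave a fold change with opposite signs in the female and male libraries, −3.66 for F1 against 0.26 for M1 and 0.60 for M2 as log2 ratios of CPM. The signs of the sexes also differed for *Cox7a1* (0.27 for F1 against −0.47 and −0.63), *Cox4i1* (−0.02 against 0.27 and 0.24) and *Cox8a* (−0.06 against 0.27 and 0.27). With 1 female library per genotype, and 1 count of *Cox6b2* in F1 of FXR-/-, nothing was read from these signs. For the interaction of genotype and sex edgeR called 0 of 14619 genes, with 217 at an unadjusted p under 0.05. The log2 ratio of *Cox6b2* to *Cox6b1* per length averaged −6.95 ± 0.161 in FXR+/+ and −7.87 ± 1.84 in FXR-/- islets (SD, n = 3; two-sided exact permutation p = 0.8, adjusted 0.8).

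Subunit VIIa takes part in the contacts of complex IV with itself and with complex III. *Cox7a1* encodes the isoform of heart, skeletal muscle and brown fat, and *Cox7a2* the widespread isoform. *Cox7a2l* encodes a related protein described as joining complexes III and IV into a supercomplex, a function not measured in these mice. *Cox7a1* (NCBI gene 12865, plus strand, chr7:30184144-30186078) was counted 15, 28 and 31 times in FXR+/+ and 19, 19 and 15 times in FXR-/- islets. This was 0.639, 1.39 and 0.978 CPM against 0.769, 0.999 and 0.631 CPM, with overlap of the genotypes. Its log2 difference was −0.29 (SE 0.372, edgeR adjusted p = 0.771).

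*Cox7a2* (NCBI gene 12866, minus strand, chr9:79755361-79759878) had 54.7, 54.6 and 54.0 CPM in FXR+/+ and 57.7, 57.0 and 61.2 CPM in FXR-/- islets. All FXR-/- libraries lay above the FXR+/+ libraries, which differed little among themselves (coefficient of variation 0.731%, the lowest of the 10 members). The difference was small, 0.11 on the log2 scale (SE 0.0742, edgeR adjusted p = 0.589), and with library size alone as the scaling the genotypes overlapped. The log2 ratio of *Cox7a1* to *Cox7a2* per length was −5.93, −4.83 and −5.32 in FXR+/+ and −5.75, −5.36 and −6.11 in FXR-/- islets, a mean difference of −0.38 with overlapping libraries (two-sided exact permutation p = 0.4, adjusted 0.533).

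*Cox7a2l* (NCBI gene 20463, minus strand, chr17:83501918-83517330) was the only ubiquitous member with a negative fold change, under all scalings tried. It had 200, 204 and 173 CPM in FXR+/+ and 174, 174 and 183 CPM in FXR-/- islets. All FXR-/- libraries lay within the FXR+/+ range, and M2 was higher in FXR-/- than in FXR+/+ islets. The log2 difference was −0.12 (SE 0.0912, edgeR adjusted p = 0.615). Within libraries the log2 ratio of *Cox7a2l* to *Cox7a2*, in CPM and chosen after its values were seen, was 1.87, 1.90 and 1.68 in FXR+/+ and 1.59, 1.61 and 1.58 in FXR-/- islets. The genotypes did not overlap, by a mean difference of −0.22. Since the ratio was picked by its values, this is a description only. How many other gene pairs were apart in this way was not counted.

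Subunit VIII is a small membrane-spanning subunit, with *Cox8a* as its widespread form and *Cox8b* as the form of heart, skeletal muscle and brown fat. *Cox8a* (NCBI gene 12868, minus strand, chr19:7215153-7217616) had 136, 131 and 134 CPM in FXR+/+ and 130, 158 and 163 CPM in FXR-/- islets. F1 of FXR-/- was the lowest of all 6 libraries and both male libraries of FXR-/- were above the FXR+/+ range. Its log2 difference was 0.16 (SE 0.0920, edgeR adjusted p = 0.538).

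*Cox8b* had 1 count in M1 of FXR-/- and 0 in the other libraries, and *Cox7b2*, an isoform of testis, had 2 and 3 counts in M1 and M2 of FXR+/+ and 0 in the others. Neither was tested. Of the restricted isoforms other than *Cox6a2*, the highest count in a library was 41, for *Cox4i2*.

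Other genes of complex IV are given beside the members. Among 6 other nuclear subunits (*Cox5a*, *Cox5b*, *Cox6c*, *Cox7b*, *Cox7c* and *Ndufa4*) 0 were called by edgeR, by edgeR with the block or by DESeq2 (0.0%, 0.157% and 1.21% of all genes called). With so few genes called in all, a count of 0 called does not set them apart from other genes. In edgeR 0 of the 6 had an unadjusted p under 0.05, beside 10.3% of all genes tested. Their log2 fold changes ran from −0.11 for *Cox7c* to 0.21 for *Cox6c*, with a median of 0.10 beside 0.0084 for all genes tested. *Cox5b* went from 67.5 ± 5.31 to 75.8 ± 11.8 CPM and *Ndufa4* from 60.2 ± 0.835 to 63.7 ± 5.04 CPM (SD, n = 3), each with overlapping libraries.

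Of 26 assembly factors, the proteins that insert copper and heme and build the complex, 25 were tested and 0 were called by edgeR, by edgeR with the block or by DESeq2. In edgeR 0 of the 25 had an unadjusted p under 0.05, beside 10.3% of all genes tested. Of the 25 factors tested, 14 had a positive and 11 a negative log2 fold change, with a median of 0.04. The values ran from −0.22 for *Sco1*, a copper chaperone, to 0.48 for *Pet117*, which had 16 to 28 counts per library. *Surf1*, whose loss in humans causes Leigh syndrome, differed by −0.11 on the log2 scale (SE 0.0821, edgeR adjusted p = 0.605). The 3 mitochondrially encoded subunits were sought, but 0 had a row in the count table under the symbols used, so they were not analysed here.

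With library size alone as the scaling, the median of all genes moved to −0.0865 on the log2 scale and that of the 6 ubiquitous isoforms to 0.07. Still 5 of the 6 were positive and *Cox7a2l* negative, as under every other scaling tried.

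The genes whose log2 CPM was most like that of *Cox6a2* over the 6 libraries, of 14618 others, were *Fads1* (Pearson r = 0.994), *4933432K03Rik* (0.991), *Nfe2l1* (0.983), *Tmem9* (0.980) and *Psap* (0.980). Their log2 fold changes were 0.23, 1.71, 0.06, 0.25 and 0.17, all but that of *4933432K03Rik* below the 1.12 of *Cox6a2*. Among the members *Cox7a2* (r = 0.927) and *Cox6b1* (r = 0.867) were the most like *Cox6a2*. For *Cox4i2* the genes were *Sympk* (0.997), *Hoxa3* (0.989), *Pcdhgc3* (0.986), *Pea15a* (0.984) and *Crocc* (0.977), and for *Cox7a1* they were *Mef2d* (0.986), *Klf5* (0.978), *Art3* (0.976), *Sptan1* (0.974) and *Stk19* (0.963). These correlations rest on 6 libraries that share genotype, sex and acinar RNA with every gene, and they are given as a description only.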

How the data were processed

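RNA-seq counts of islets from FXR+/+ and FXR-/- mice were used, with genotype, sex and replicate number from the labels. The authors deposited whole-number counts per gene and per exon, without normalization. HISAT is named in the submitters' processing notes, and the counter, its version and its use of strand are not given in the sources used here. Exon positions are those of GRCm38 (86.7% of 139263 exons have the coordinates of an exon in GENCODE vM21). Exon counts sum to 32.3% to 36.6% of gene counts and hold as little as 1.20% of those of *Cox6b1*, by an unstated rule. The deposited genotype comparison (signal, log2 fold change, p-value and q-value, made by the authors) was not used.

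The counts entered edgeR 4.0.16 in R 4.3.3 (filterByExpr with minimum count 10 and minimum total 15, TMM, glmQLFit and glmQLFTest, terms for sex and genotype, Benjamini-Hochberg over all genes tested, called at an adjusted p under 0.05). DESeq2 1.42.0 was an alternative. The code was tested on simulated data. Lengths and coding sequences were from GENCODE vM21, and primers from the study's supplementary table. Near copies were sought with blastn (at least 90% identity over 75 bases). Ratios between isoforms used counts with 0.5 added, divided by transcript length, with exact permutation tests over all 20 relabellings.

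Deviations of same-numbered libraries from their genotype means correlated at 0.361 (F1), 0.367 (M1) and 0.323 (M2), and those of different numbers at 0.02 or below, so the numbers were taken to pair the libraries. This choice was made from the same counts that entered the block fits. Deviations from a genotype mean cancel out within the genotype, which by itself lowers the values for different numbers. The numbers come from the labels, which do not say what they mark. No 2 libraries of the same genotype agreed within sampling noise, and pairs across genotypes were not compared. Members and gene lists were chosen with earlier results of these data known. The genes named are the members, the complex IV lists, the 5 genes most like each of 3 isoforms, *Nr1h4*, *Itgad*, *Emc8*, near copies and cell type markers. Other settings tried were no sex term, the replicate block, males alone, other scalings, filters and dispersion estimates, exon sums, an acinar term and each library left out.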

Additional observations from a re-analysis of the deposited data

How the results depend on the processing

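In 18 other fits, of which 6 left out a library each, 170 fold changes of members kept their direction and their side of the threshold. Of the others 2 passed the threshold and 4 reversed (DESeq2 gave no adjusted p for *Cox6b2*). With a term for sex, the fits without F1 of either genotype gave the same fold changes as males alone. These fits are therefore not separate, and they gave 3 of the 4 reversals, all of *Cox6b2*. The count of members called was 0 in edgeR's quasi-likelihood test and 1, *Cox6a2*, with the replicate block and with DESeq2, and 0 in every fit without a library. The block changed no call of another member or of the subunit and assembly lists. Fold changes of *Cox6b2* became 0.45 with males alone and ran from −0.90 to 0.45 without a library each, and its log2 ratio to *Cox6b1* became 0.19 with males alone and ran from −1.55 to 0.13, with F1 of FXR-/-, which has 1 count, setting the sign. From exon sums *Cox7a2* had −0.20 and the ratio of *Cox7a1* to *Cox7a2* 0.11, and the exon table holds few counts of these genes. *Cox4i2* and *Cox7a1* could not be tested from exon sums, nor *Cox6b2* there or with at least 10 counts in every library, since the filter removed them. With the median transcript length the level in FXR+/+ islets was 223 for *Cox4i1*, 173 for *Cox6b1*, 0.990 for *Cox6b2*, 114 for *Cox7a2*, 194 for *Cox7a2l* and 254 CPM per kilobase for *Cox8a*, and the order of the 10 members was the same. With few counts, the changes of *Cox4i2*, *Cox6b2* and *Cox7a1* are the least precise.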
